A study of Mus musculus with 16 samples.

Results

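Epcam, Cdh1, Cldn3, Cldn4, Cldn7, Spint1, Spint2, Tjp1, F11r and Dsp are 10 genes of epithelial cell-cell adhesion, named by symbol from the 19822 genes of the count tables. They were measured by Drop-seq, a droplet method that reads the 3′ end of single transcripts and counts each molecule by its unique molecular identifier (UMI), in mammary tumours taken at end stage from 2 mouse models. WB1P mice carry WapCre;Brca1F/F;Trp53F/F, in which Cre under the milk-protein promoter Wap removes Brca1 and Trp53 from the mammary epithelium. Mice of WB1P-Myc add to these alleles a Cre-switched Myc transgene (Col1a1 invCAG-Myc-IRES-Luc), so that loss of Brca1 and Trp53 was shared by both groups. The tumours were untreated, the labels give no age, and live single cells were sorted without selection for any surface protein. The tumours came from 2 mice per model, but neither labels nor tables assign cells or fractions to a mouse, and each model was processed as 1 sample from which 4 droplet fractions were kept. The run names carried by the tables differ between the models, so that model and run cannot be told apart.

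Epithelial cells are joined by adherens junctions, built on the cadherin encoded by Cdh1, by tight junctions, in which claudins seal the space between neighbours, and by desmosomes, which anchor keratin filaments. Epcam encodes an adhesion molecule of the lateral membrane that binds claudin-7, and Spint1 and Spint2 encode transmembrane Kunitz inhibitors of serine proteases such as matriptase, which cleaves Epcam. These genes are widely used as markers of epithelial identity in mammary tissue, and loss of several of them together is a known feature of epithelial-mesenchymal transition.

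After barcodes were kept with 450 to 4000 genes and under 20% mitochondrial UMIs, 4798 cells remained, 1307 of WB1P and 3491 of WB1P-Myc. The tables held 256985 to 4960334 UMIs and 65 to 950 kept cells each, and the median cell had 1724 UMIs in WB1P and 2359 in WB1P-Myc. The smallest table, WB1P fraction 1, gave 60 of the 675 epithelial-like cells of WB1P. Of the kept barcodes, 256 held an undetermined base, 1 was found in more than 1 library and 11 were shifted by 1 base from another of the same library. Since the mice cannot be told apart in the tables and each model was processed as 1 sample, no test between models was possible. The fractions repeat only the droplet and library steps, and all 95% intervals given here cover counting error only.

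Cells were classed by clustering from which the 10 genes and the 87 listed junction genes had been left out, so the classes were not built on the values of those genes. Junction genes outside the lists, such as the claudin Cldn11, took part. Epithelial-like cells numbered 675 in WB1P and 1416 in WB1P-Myc, but lay in different clusters: 670 of those of WB1P were in a cluster led by Csn3, Lcn2, Wfdc2 and Krt7, and 1409 of those of WB1P-Myc in a cluster led by Igf2, Bex1 and H19. The WB1P-Myc cluster held Krt8, Krt19, Krt14, Krt17 and Ehf among its raised markers, none of them in its 10 leading genes. The summed level of 14 epithelial markers, none of them a junction gene, was 8429 CPM in WB1P epithelial-like cells and 1643 in those of WB1P-Myc, against 177 in 1028 Schwann-like cells, a class found in WB1P-Myc alone and named from Sox10, Mbp and other markers. A level in CPM is the UMIs of a gene summed over the cells of a class, divided by all UMIs of those cells and multiplied by 1000000. Schwann markers summed to 655 CPM in WB1P-Myc and 139 in WB1P epithelial-like cells, against 3843 in Schwann-like cells. Macrophage-like (377 and 699 cells), fibroblast-like (217 and 276) and endothelial-like cells (38 and 72) served as comparison classes.

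Of the targeted genes, Myc stood at 67.1 CPM in WB1P and 201 in WB1P-Myc epithelial-like cells, and at 117 in Schwann-like cells. In the same order Brca1 stood at 5.39, 10.8 and 20.3 CPM and Trp53 at 7.84, 14.2 and 23.2. Fibroblast-like cells had Myc at 124 CPM in WB1P and 97.2 in WB1P-Myc, so the Myc level of Schwann-like cells was not particular to them. The transgene transcript continues past Myc into luciferase, and the tags of Brca1 and Trp53 lie beyond their deleted parts, so none of the 3 levels is a full check of the alleles.

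Epcam was lower in WB1P-Myc than in WB1P epithelial-like cells in every fraction. In WB1P it was measured at 3842, 2463, 2447 and 2065 CPM in fractions 1 to 4, and in WB1P-Myc at 554, 512, 567 and 527. The fractions of the models did not overlap. Here and for the genes below, the share of all genes without such overlap was not counted. The pooled level was 2388 (95% interval 2321 to 2456) against 540 (520 to 561), 4.42-fold lower in WB1P-Myc. An Epcam UMI was found in 77.9% of WB1P and 47.4% of WB1P-Myc epithelial-like cells, and, with each cell thinned to 1000 UMIs, in 66.7% and 32.4%. Macrophage-like cells, which should lack the gene, had 10.6% and 3.81% at that depth, with median depths before thinning of 1834 and 2221 UMIs in the epithelial-like and 1453 and 1488 in the macrophage-like cells. Schwann-like cells, at 3.38% (2.35% to 4.70%), were at the share of macrophage-like cells of the same tumour (2.40% to 5.72%).

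Cdh1, which encodes E-cadherin, did not follow Epcam. Its fractions were 134, 54.5, 77.1 and 77.3 CPM in WB1P and 83.7, 73.2, 84.3 and 72.1 in WB1P-Myc epithelial-like cells. The WB1P-Myc range lay inside that of WB1P. The pooled levels of 71.5 and 78.5 gave a log2 ratio of 0.13 (−0.14 to 0.42). Cdh1 was also found in macrophage-like cells, at 49.9 CPM in WB1P and 19.4 in WB1P-Myc, and the log2 ratio was 1.45 when those levels were subtracted. Fibroblast-like cells were at 5.15 and 7.24 CPM, and whether the macrophage-like level is background was not tested.

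Cldn3, Cldn4 and Cldn7, claudins of the tight-junction strands, were lower in WB1P-Myc to different degrees. Cldn4 differed most, going from 56.0, 62.7, 119 and 175 CPM in the WB1P fractions to 13.6, 9.87, 43.9 and 13.3 in those of WB1P-Myc. The pooled difference was 5.83-fold (4.59 to 7.46), and the fractions did not overlap, although fraction 3 of WB1P-Myc stood well above the other 3. Without that fraction the log2 ratio was −3.22 in place of −2.54. Cldn3 went from 605, 308, 334 and 275 to 109, 104, 183 and 109 CPM, a 2.53-fold lower pooled level, also with no overlap. Cldn7, the partner of Epcam, showed the smallest difference of these 3: 112, 136, 176 and 174 against 80.8, 62.5, 126 and 82.1 CPM, 1.81-fold lower, with overlapping fractions.

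The remaining tight-junction genes parted ways. F11r encodes JAM-A, an immunoglobulin-like adhesion molecule, and stood at 101, 170, 173 and 146 CPM in the WB1P fractions and at 30.05, 41.1, 55.0 and 35.6 in those of WB1P-Myc. It was 4.00-fold lower over the pools, with no overlap. Tjp1 encodes ZO-1, the scaffold that ties junction proteins to actin. It was measured at 0, 19.1, 18.4 and 17.8 CPM in WB1P and 22.2, 25.5, 29.2 and 21.5 in WB1P-Myc. Of the 10 genes it alone had every WB1P-Myc fraction above every WB1P fraction, by a narrow gap. The log2 ratio of 0.47 (−0.07 to 1.05) rested on 36 UMIs in WB1P, and its interval included no difference.

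The desmosomal plaque gene Dsp, encoding desmoplakin, was at 157, 81.7, 60.6 and 38.6 CPM in WB1P and 48.6, 64.1, 66.2 and 52.2 in WB1P-Myc epithelial-like cells. The ranges overlapped, and the log2 ratio of the pooled levels was −0.18 (−0.48 to 0.12). The protease inhibitors were both lower in WB1P-Myc. Spint2 was at 146, 219, 404 and 373 CPM in WB1P and 116, 123, 142 and 104 in WB1P-Myc, 2.62-fold lower and without overlap, the gap between the nearest fractions being small. Spint1 was scarce in both, with 35 and 27 UMIs, at 17.1 and 5.42 CPM (log2 ratio −1.66, −2.44 to −0.90).

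**Figure D1:**
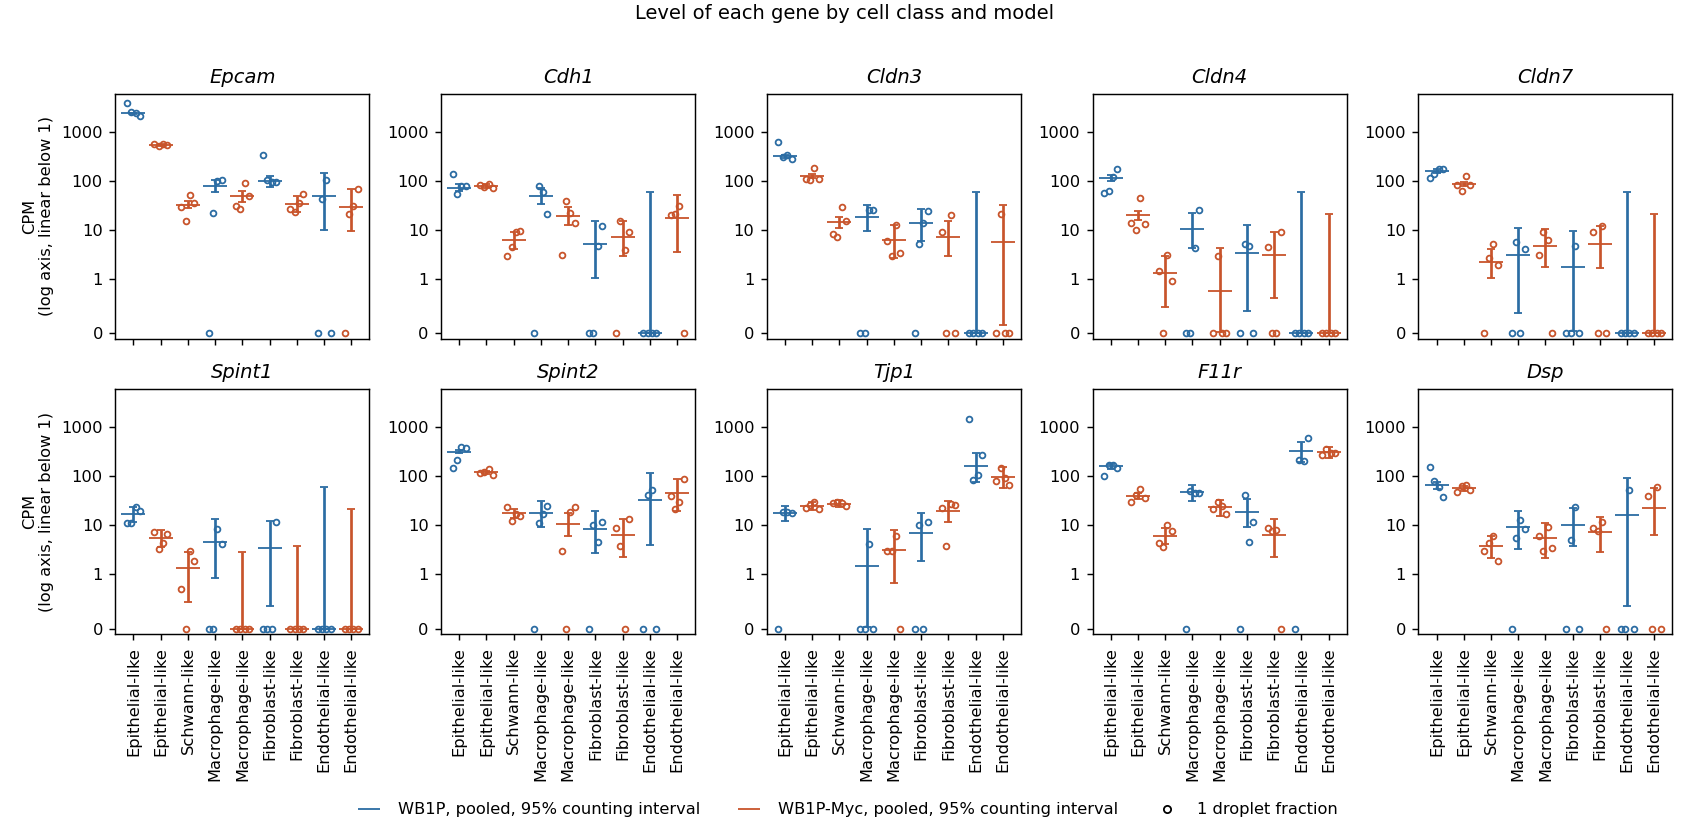
Level of each of the 10 genes in CPM (log axis, linear below 1) by cell class; lines are pooled levels, bars 95% counting intervals and circles the 4 fractions, blue for WB1P and orange for WB1P-Myc. Epcam steps down from 2388 in WB1P to 540 in WB1P-Myc epithelial-like cells and 32.2 in Schwann-like cells, whereas Tjp1 lies between 17.6 and 27.8 in these classes and is highest in endothelial-like cells.

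Counted together, 6 of the 10 genes (Epcam, Cldn3, Cldn4, Spint1, Spint2 and F11r) were at least 2-fold lower in WB1P-Myc epithelial-like cells, and none was 2-fold higher. Over the 9458 genes with at least 50 UMIs in the pools, 15.2% were at least 2-fold lower and 15.3% at least 2-fold higher. The median log2 ratio was −1.36 over the 10 genes and 0.01 over all genes. The epithelial marker sum moved the same way and its part in these ratios was not tested. When cells were instead assigned by their largest sum of marker UMIs, which left 526 WB1P-Myc and 619 WB1P epithelial-like cells, the median was −0.77, and 3 genes (Epcam, Cldn4 and F11r, at −1.62, −1.504 and −1.26) stayed at least 2-fold lower, while Cdh1, Tjp1 and Dsp were at 0.74, 0.87 and 0.50.

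With Schwann-like cells added to the WB1P-Myc side, as all cells of tumour type, 8 of the 10 genes were at least 2-fold lower than in WB1P, against 12.7% of 10979 genes lower and 18.2% higher. The median log2 ratio was −2.14, beside 0.09 over all genes. Cdh1 (−0.70) and Tjp1 (0.56) were the genes that did not pass 2-fold.

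**Figure D2:**
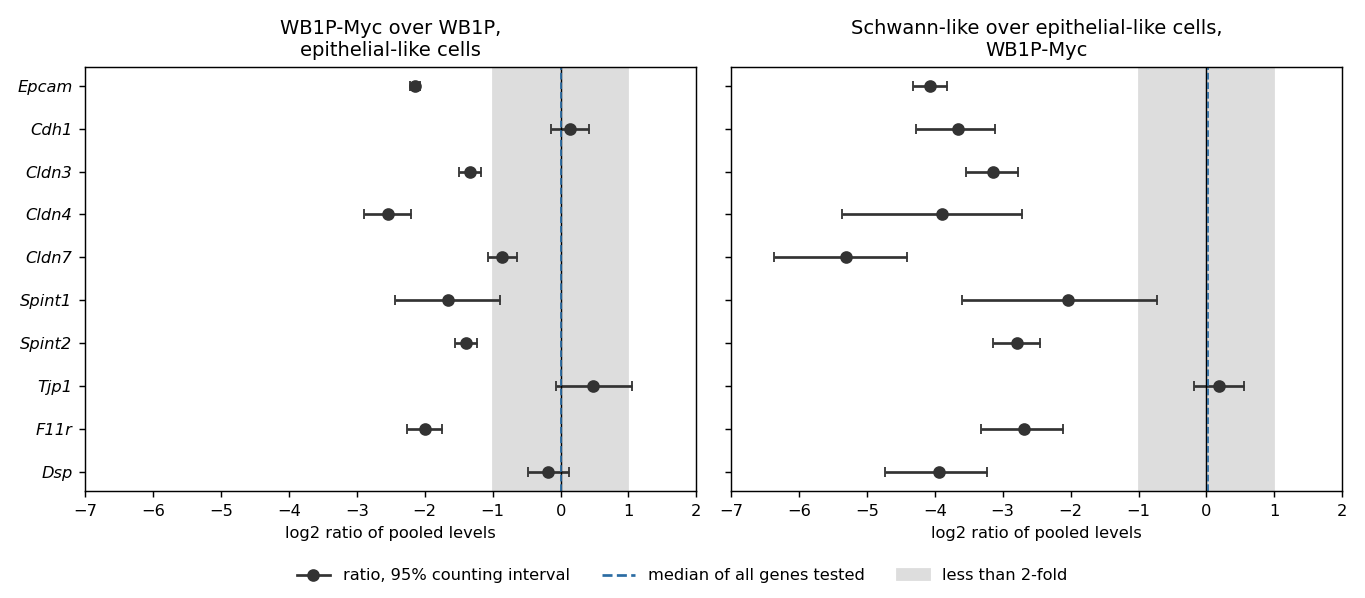
Log2 ratio of pooled levels for each gene with its 95% counting interval, for WB1P-Myc over WB1P epithelial-like cells (left) and for Schwann-like over epithelial-like cells of WB1P-Myc (right); grey marks less than 2-fold and the dashed line the median of all genes tested. Cdh1, Cldn7, Tjp1 and Dsp sit within the grey band on the left, and Tjp1 alone on the right.

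Within WB1P-Myc, most of the 10 genes differed more between Schwann-like and epithelial-like cells than epithelial-like cells did between the models. Cldn7 was 39.5-fold lower in Schwann-like cells, at 0, 2.67, 5.03 and 1.90 CPM in the 4 fractions. Epcam was 16.8-fold lower, at 29.4, 15.1, 52.3 and 35.2, and Dsp was 15.3-fold lower, with no fraction above 6.03. No Schwann-like fraction reached the lowest epithelial-like fraction for these genes. The sizes depended on the clustering: on the 2000 most variable genes, which gave 1605 Schwann-like cells, the log2 ratios of Cldn7, Epcam, Dsp and Cdh1 were −2.05, −1.75, −2.10 and −1.71, in place of −5.31, −4.07, −3.93 and −3.67. In that setting Epcam and Spint2 differed less between these classes, at −1.75 and −1.19, than between the models, at −2.12 and −1.49.

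Cdh1, which differed little between the models, was 12.7-fold lower in Schwann-like cells, at 6.18 CPM. Cldn4, Cldn3, Spint2 and F11r were 14.8-, 8.86-, 6.93- and 6.46-fold lower. With clustering on the 2000 most variable genes, the log2 ratios of Cldn3 and Spint2 were −1.60 and −1.19, in place of −3.15 and −2.79. Those of Cldn4 and F11r changed little, at −3.98 and −2.61 in place of −3.89 and −2.69. Of the 9 genes with enough UMIs, 8 were at least 2-fold lower and none higher, beside 7.66% lower and 10.9% higher among 10321 genes, and the median log2 ratio over the 10 genes was −3.41 beside 0.03 over all genes. Spint1 had only 33 UMIs in the pools, below the 50 required.

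Tjp1 was the exception. Its Schwann-like fractions were 27.9, 30.2, 28.2 and 24.8 CPM, overlapping the epithelial-like fractions, and its log2 ratio was 0.18 (−0.19 to 0.56). To ask which genes stayed above the level given by free RNA or low common expression, each level was set beside the lower of the macrophage-like and fibroblast-like levels of the same model. In Schwann-like cells Tjp1 (8.96-fold above) and Spint2 (2.81-fold) had intervals above that level, and the other 8 genes had not. Neither was above the higher of the 2 classes: Tjp1 was at 19.7 CPM (11.8 to 30.7) in fibroblast-like cells and Spint2 at 10.9 (5.94 to 18.2) in macrophage-like cells, so that none of the 10 genes stood above both. In Schwann-like cells Spint2 was no longer above the lower level without fraction 1 or 3, and Cldn3 came to lie above it without fraction 1 or 2. In WB1P-Myc epithelial-like cells all 10 genes had intervals above the lower level and 8 above the higher, the exceptions being Tjp1 and Spint1. How many of all genes pass either rule was not counted, so these counts describe the 10 genes only. In WB1P epithelial-like cells 9 were above the lower, Spint1 not being among them, and 7 above the higher, without Cdh1, Spint1 and Tjp1. The ratios of these 3 genes between models thus include levels not separated from the higher class. For Cdh1 that class was macrophage-like, at 49.9 CPM, while fibroblast-like cells of WB1P were at 5.15. Leaving out a fraction changed further calls: without fraction 3 of WB1P-Myc, Cldn4 and F11r were not above the higher level, without fraction 1 Spint1 was not above the lower, and without fraction 2 it was above the higher, as it was above both in WB1P without fraction 2 of that model.

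Outside the tumour classes, the genes were not uniformly epithelial. F11r was highest in endothelial-like cells, at 324 CPM in WB1P (198 to 501) and 308 in WB1P-Myc (231 to 402), and so was Tjp1, at 162 (77.8 to 298) and 96.9 (56.5 to 155). Neither gene differed between the models beyond its interval. Cldn4, Cldn7 and Spint1 had no UMI in the 110 endothelial-like cells, which in the 72 cells of WB1P-Myc allows up to 17.1 CPM by a limit of 3 UMIs. Epcam in non-tumour classes ranged from 28.5 to 97.8 CPM. It was lower in each such class of WB1P-Myc than of WB1P, although the intervals overlapped in macrophage-like and endothelial-like cells.

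The number of these genes seen in a single cell showed the same order. At 1000 UMIs per cell, WB1P epithelial-like cells had a UMI of 1.70 of the 10 genes on average, those of WB1P-Myc of 0.83 and Schwann-like cells of 0.10. None of the genes was seen in 24.7% (21.1% to 28.6%) of WB1P epithelial-like cells, 49.1% (46.2% to 51.9%) of WB1P-Myc epithelial-like cells and 91.2% (89.3% to 92.9%) of Schwann-like cells. Macrophage-like cells of WB1P-Myc, at 90.3%, were close to the last. At least 3 of the genes were seen in 29.3% of the WB1P and 6.80% of the WB1P-Myc epithelial-like cells, and in 0 of 1005 Schwann-like cells.

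**Figure D3:**
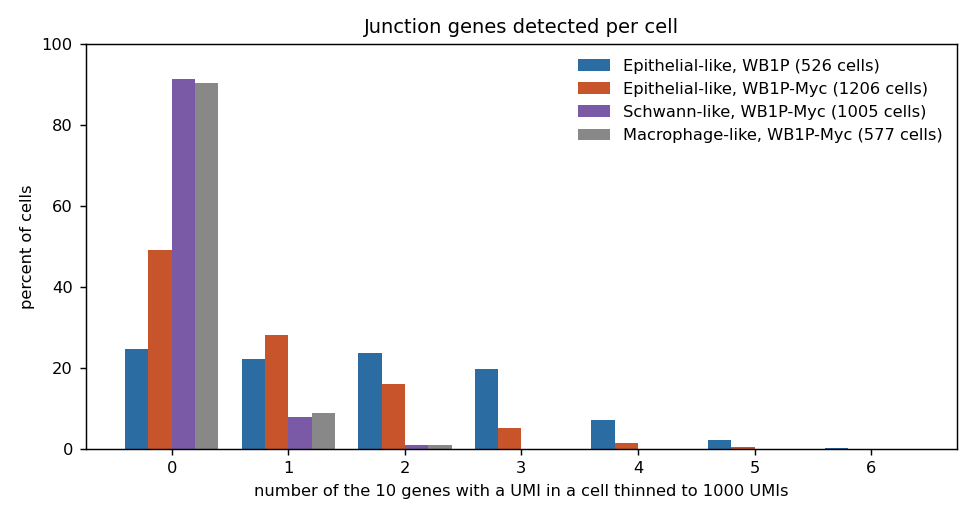
Percent of cells by the number of the 10 genes with a UMI, each cell thinned to 1000 UMIs; bars are classes. Bars at 0 genes reach 24.7% for WB1P and 49.1% for WB1P-Myc epithelial-like cells, and about 90% for Schwann-like and macrophage-like cells of WB1P-Myc.

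WB1P-Myc cells without an Epcam UMI were then examined for the other 9 genes. Cells with at least 1500 UMIs were thinned to 1500 and divided by whether an Epcam UMI remained, which chose the cells and makes Epcam itself no result. Epithelial-like cells of WB1P-Myc held 0.793 Epcam UMIs on average at this depth, so having none does not show that a cell lacked Epcam, and sampling and low expression cannot be told apart. In WB1P-Myc epithelial-like cells 554 had none and 380 had at least 1, and 482 cells were too shallow. The median log2 ratio of cells without over cells with Epcam was −1.31 over the 9 genes and −0.02 over all genes. Of the 6 genes with enough UMIs, Cdh1, Cldn3, Cldn7 and F11r were at least 2-fold lower and none higher, against 2.09% lower and 2.34% higher of 3974 genes.

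Most of the other genes were still found in cells without an Epcam UMI. Cldn3 was at 56.9, 64.8, 64.3 and 65.7 CPM in the 4 fractions of these epithelial-like cells, against 212 pooled in those with Epcam, and 10.1-fold above its background level. Spint2 differed less, at 73.2, 88.0, 129 and 101 CPM, 95.1 pooled against 160, and 15.3-fold above background. Every fraction of both genes lay above the pooled background.

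Cdh1 was at 52.8, 50.9, 35.1 and 50.5 CPM in these cells, 48.1 pooled against 119 with Epcam. Dsp was at 56.9, 64.8, 23.4 and 50.5, pooled 50.5 against 91.2, a log2 ratio of −0.85 (−1.47 to −0.24). Both had intervals above background, as did Cldn7 (36.1 against 121), F11r (25.3 against 54.4) and Tjp1 (24.1 against 35.1). In all, 7 of the 9 genes were above this background in epithelial-like cells without an Epcam UMI, and Cldn4 and Spint1, with 5 UMIs each, were not. The share of all genes above such a level was not counted, so these counts cannot be set against it. Against the higher of the 2 classes, a choice made after seeing the data, 5 remained, Cdh1, Cldn3, Cldn7, Spint2 and Dsp, since F11r was at 23.3 CPM (15.7 to 33.3) in macrophage-like and Tjp1 at 19.7 (11.8 to 30.7) in fibroblast-like cells. Without fraction 1 F11r was not above the lower class either. Other marker sums moved along with the division: epithelial markers were at 880 CPM without and 2656 with Epcam, fibroblast markers at 1059 and 311, and Schwann markers at 815 and 512. Their part in the result was not tested.

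When Schwann-like cells were included, 1416 tumour-type cells of WB1P-Myc had no Epcam UMI and 441 had at least 1, and 62.4% of the former but 8.84% of the latter were Schwann-like. The median log2 ratio was −2.46, beside 0.02 over all genes, and 6 of 7 genes with enough UMIs were at least 2-fold lower, against 2.53% lower and 7.91% higher of 6369 genes. Tjp1 was at 25.0 against 24.2 CPM, a log2 ratio of 0.045 (−0.78 to 0.95) on 53 and 16 UMIs, and at 0.50 without fraction 2. Cldn3, Cldn7 and Spint2 had intervals above both background classes in these cells, and Tjp1 above the lower, but without fraction 1 Cldn7 was above neither. The cells of this pool were thinned in another draw than the epithelial-like and Schwann-like cells taken alone. In cells without Epcam, Cdh1 had 36 UMIs here but 40 in the epithelial-like cells alone, Dsp 23 but 42, and Cldn7 41 but 30. Whether these calls hold in other draws was not tested. In the 885 Schwann-like cells without an Epcam UMI no gene was above both, Tjp1 being at 23.4 CPM (15.9 to 33.1) against 3.11 in macrophage-like and 19.7 in fibroblast-like cells, and Cldn7 had no UMI.

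The same division in WB1P gave 117 epithelial-like cells without and 286 with an Epcam UMI, and the median log2 ratio was −2.21 beside −0.05 over all genes. Epithelial-like cells of WB1P held 3.46 Epcam UMIs on average at this depth, against 0.793 in those of WB1P-Myc. Having none therefore does not choose like cells in the 2 models. Cldn3 was at 22.8 against 413 CPM, Cldn7 at 11.4 against 247, and Cdh1 had 1 UMI against 41. On so few UMIs these ratios were unsteady. The log2 ratio of Cldn3 was −4.18, but −5.72 without fraction 3 of WB1P, and that of Cldn7 was −4.44, but −3.74, −3.37 and −3.79 without fractions 2, 3 and 4. With the thinning drawn anew, an alternative chosen after seeing the data, they were −4.70 and −5.41, and that of Cdh1 was −3.00 in place of −4.07, its only UMI having come from fraction 3. Other marker sums moved here too, epithelial markers being at 3322 CPM without and 10382 with Epcam, fibroblast markers at 1066 and 256 and endothelial markers at 222 and 69.9, and their part was not tested. Only Cldn4 (34.2) and Spint2 (85.5) were above the lower background class in WB1P cells without Epcam, and Spint2 above both, where counts were small: 1 to 15 UMIs per gene. Both calls rested on 1 fraction: Cldn4 was at 0, 0, 21.5 and 95.2 CPM and not above background without fraction 4, and Spint2 was at 0, 53.3, 194 and 38.1 and above neither class without fraction 3. Without fraction 3, Dsp and Tjp1 came to lie above the lower class, and without fraction 2 Cldn4 above both. The difference between the models in what remained without Epcam was not tested. Among cells thinned to 1000 UMIs and lacking Epcam, 27.4% (24.3% to 30.6%) of WB1P-Myc and 25.7% (19.4% to 32.9%) of WB1P epithelial-like cells held a UMI of another of the 9 genes, against 5.56% (4.21% to 7.19%) of Schwann-like cells and 6.13% and 12.2% of macrophage-like cells of WB1P-Myc and WB1P. Fibroblast-like cells were at 6.85% in WB1P-Myc and 2.89% in WB1P. Endothelial-like cells were above the epithelial-like ones, at 45.1% (31.1% to 59.7%) of 51 cells in WB1P-Myc and 40.7% (22.4% to 61.2%) of 27 in WB1P, so such a UMI is not particular to epithelial-like cells. Thinning to 1000 UMIs left out 210 WB1P-Myc and 149 WB1P epithelial-like cells. At 600 UMIs the epithelial-like shares were 21.1% (18.7% to 23.6%) in WB1P-Myc and 28.3% (22.9% to 34.2%) in WB1P. Those of endothelial-like cells were then 28.6% and 32.4%.

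**Figure D4:**
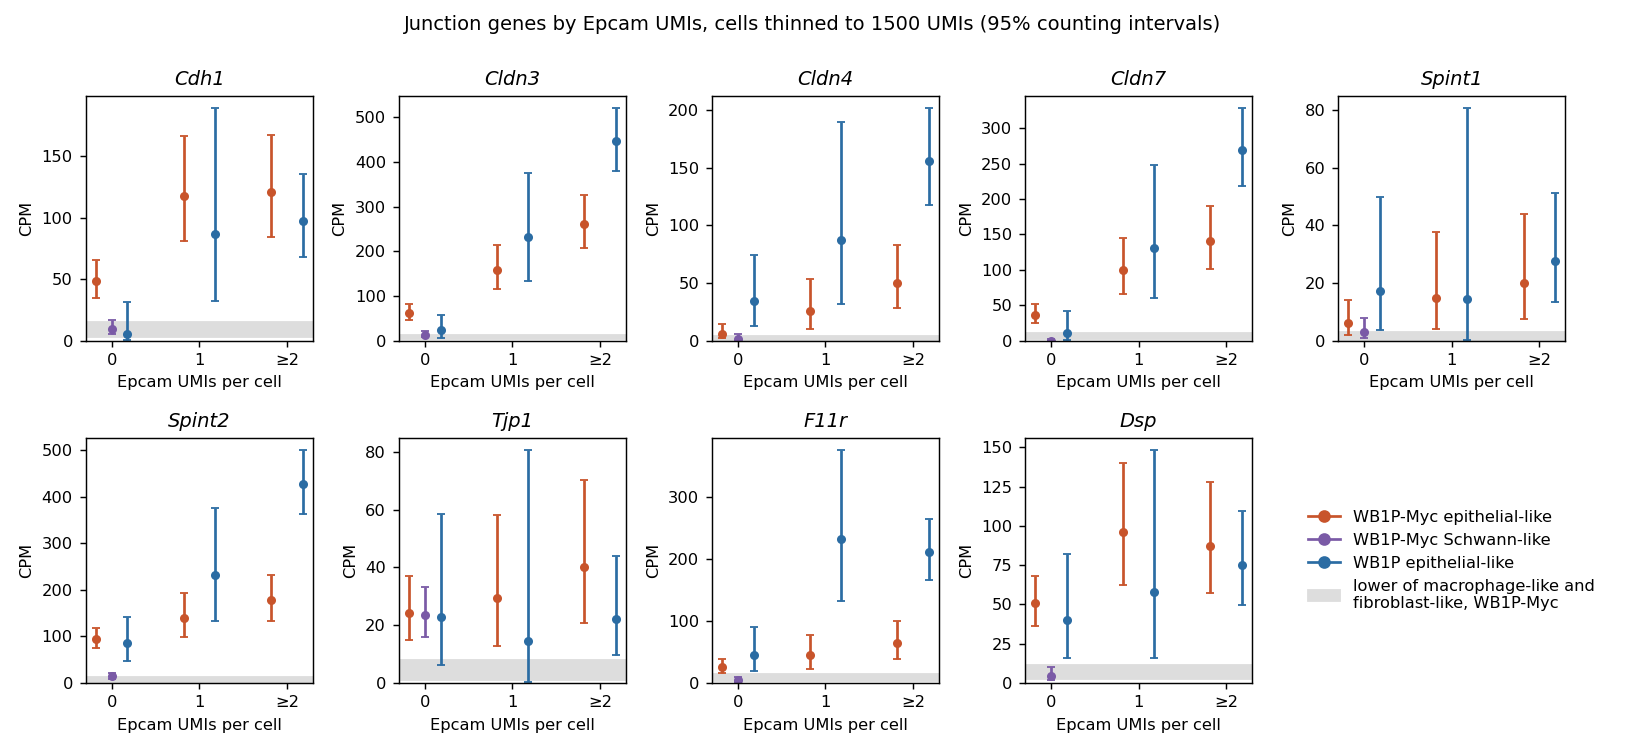
CPM of the 9 genes other than Epcam in cells thinned to 1500 UMIs, by 0, 1 or at least 2 Epcam UMIs, with 95% counting intervals; the grey band is the interval of the lower of macrophage-like and fibroblast-like cells of WB1P-Myc, and Schwann-like cells are drawn at 0 Epcam UMIs only. Cdh1, Cldn3, Cldn7, Spint2, Tjp1, F11r and Dsp stand above the band in WB1P-Myc epithelial-like cells at 0 Epcam UMIs, and Tjp1 in Schwann-like cells. The other of the 2 classes, not drawn, overlapped Tjp1 in both and F11r in epithelial-like cells.

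A finer clustering divided the WB1P-Myc epithelial-like cells into 574 with raised Krt14, 235 led by Mfng and 601 shallow cells with Gm23935, Lars2 and mitochondrial transcripts among their leading genes. The last 2 groups had no marker of any class raised, epithelial ones included, and so had no name. Epcam was at 550, 616 and 330 CPM in the Krt14, Mfng and shallow groups, and Cdh1 at 77.8, 91.9 and 59.0. Cldn4 and F11r varied most, at 29.0 and 48.1 in the Krt14 group and 2.57 and 19.6 in the Mfng group, while Spint2 went the other way, at 106.5 and 164. Tjp1 was nearly level, at 24.4, 28.1 and 26.2.

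A further set of tables from another sequencing run of the same fractions shared only 2 to 11 of 1000 barcodes with the main table of each fraction, and were treated as largely other cells of the same fractions, which was not tested. Clustered by themselves at the finer setting, they gave 234 WB1P and 126 WB1P-Myc epithelial-like and 145 Schwann-like cells. A further 344 WB1P-Myc cells stayed unnamed, with Epcam at 312 and Cdh1 at 59.6 CPM, and took no part in the ratios. Of the WB1P-Myc epithelial-like cells, 124 lay in a cluster with raised Krt14. The class is therefore not the same as in the main tables, which also held the Mfng-led and shallow cells. Levels below are for WB1P epithelial-like, WB1P-Myc epithelial-like and Schwann-like cells. Epcam was at 2431, 579 and 42.5 CPM in these, Cldn3 at 314, 120 and 8.50, and Cdh1 at 99.7, 88.5 and 2.12. The median log2 ratio was −1.35 over the 10 genes between models and −3.55 for Schwann-like over epithelial-like cells, the latter over 9 genes, since Spint1 had 0 and 2 UMIs and gave no ratio. Tjp1 was at 45.0, 27.2 and 25.5, so that its direction between the models was opposite to that in the main tables, on 28 and 12 UMIs.

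Other genes of the same structures, from lists covering 87 genes, were also compared between the epithelial-like cells of the models, where 15.2% of all genes were lower. Of 24 other tight-junction genes with enough UMIs, 9 were at least 2-fold lower and 2 higher, with a median log2 ratio of −0.80. Cldn6 and Cldn8, claudins named after their values were seen and too scarce for the count, had 0 and 1 UMIs in WB1P and 37 and 15 in WB1P-Myc. Cldn10 and Crb3, a claudin and a polarity gene, were lowest at −2.30 and −1.81, and Jam3, a relative of F11r, was highest, with 169 UMIs in WB1P-Myc and 2 in WB1P. Among 14 adherens-junction genes, 5 were lower and 2 higher (median −0.52), the higher ones being the cadherins Cdh3, with 78 against 2 UMIs, and Cdh11 (2.11). Desmosome genes were lower in 4 of 8 and higher in none (median −1.02), led by the plaque gene Pkp1 (−2.47), with Perp, a desmosomal membrane protein, at −0.10.

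Of 11 membrane protease and partner genes, 6 were lower and none higher (median −1.13). Among them the tetraspanin Cd9, at −2.62 between models, was higher in Schwann-like than in epithelial-like cells, at 1.498. Epithelial regulators were lower in 1 of 5 (Klf5, −1.93) and higher in 1 (the splicing factor Esrp2, 1.30), while all 5 were lower in Schwann-like cells, with Grhl2, a grainyhead-like factor, at −3.86. Of 5 repressors of epithelial genes, 2 were lower between models and 1, Tcf4, was higher (1.74). Zeb2 was at 0.68 between models and 2.12 in Schwann-like over epithelial-like cells, and Snai1 and Twist1 were lower in both comparisons, at −1.69 and −1.45 between models and −2.15 and −4.20 between classes. In Schwann-like over epithelial-like cells, 7 of 20 tight-junction, 3 of 13 adherens-junction, 5 of 7 desmosome, 4 of 7 protease and partner and 3 of 6 repressor genes were at least 2-fold lower, and 2, 1, 0, 1 and 1 were higher, beside 7.66% lower and 10.9% higher over all genes.

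Across 28 pools of 1 class in 1 fraction, the genes whose log2 level followed the mean of the 10 genes most closely were Krt8 (Pearson r = 0.951), S100a14 (0.941), BC006965, Sfn, Lad1, Ehf, Urah, Mpzl2, Ly6d and Scx (0.907), of 7885 genes ranked. Of the 10 genes themselves, Spint2 (0.944), Cldn3 (0.932) and Cldn7 (0.913) lay closest to the mean of the other 9, Cdh1 stood at 0.750 and F11r at 0.596, and Tjp1 showed no such relation (0.0397). The pools share libraries, models and classes, and these values are descriptions over pools that are not independent. Krt8 and Ehf were also among the epithelial markers that named the classes, so their place in this list is no independent result.

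The sequence near the start sites was looked at because 6 of the genes were lower together. The genes lie at chr17:87635979-87651127 (Epcam), chr8:106603350-106670247 (Cdh1), chr5:134986214-134987476 (Cldn3), chr5:134945123-134946934 (Cldn4), chr11:69964779-69967886 (Cldn7), chr2:119237360-119249535 (Spint1), chr7:29256330-29282059 (Spint2), chr7:65296165-65527850 (Tjp1), chr1:171437561-171464593 (F11r) and chr13:38151294-38198577 (Dsp) of GRCm38.p6. RefSeq promoter sequences of that build were matched for 9 of the 10 genes, Cdh1 not being among them. The 250 bases before each start were searched on both strands for CAGGTG, the E-box bound by Snail and Zeb repressors, and its reverse complement CACCTG, and for AACCNGTT, the site of grainyhead-like factors.

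The E-box was in 17.2% of 32851 promoters and in 5 of the 10 promoters of the 9 genes, those of Epcam, Cldn4, F11r and Spint2 and 1 of the 2 of Cldn7, and AACCNGTT was in 1.79% and in none. A match describes letters and shows no binding, and these 5 genes include Cldn7, which was under 2-fold lower between models. Each match is printed 5′ to 3′ on the strand of its gene with the motif in capitals, since these short stretches are what the 5 promoters share. They lie at chr17:87635780-87635809 and chr17:87635948-87635977 (Epcam, plus strand), chr5:134946935-134946960 (Cldn4, minus), chr11:69965312-69965341 and chr11:69965352-69965381 (Cldn7, plus, before an inner start), chr1:171437427-171437456 (F11r, plus) and chr7:29281978-29281998, chr7:29282015-29282044 and chr7:29282034-29282063 (Spint2, minus, before an inner start, the last 2 overlapping and the last reaching past the annotated end of the gene).
Epcam distal: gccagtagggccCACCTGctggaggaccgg
Epcam proximal: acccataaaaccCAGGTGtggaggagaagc
Cldn4: ctttaactgcagCACCTGtggccgcc
Cldn7 distal: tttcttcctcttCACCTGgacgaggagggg
Cldn7 proximal: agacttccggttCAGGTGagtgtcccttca
F11r: agttcggggttgCACCTGcgtacggtgagt
Spint2 proximal: gccccgccccgcCAGGTGcgc
Spint2 middle: aggccgcagagcCAGGTGcggggccctccg
Spint2 distal: cgggggcggtgcCAGGTGcaggccgcagag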

How the data were processed

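The authors sorted live single cells from end-stage tumours, made Drop-seq libraries of 4 droplet fractions per model and sequenced each on a MiSeq and a HiSeq. They deposited UMI counts per gene for 1000 barcodes in each of 16 tables. The submitters' processing notes name mm10 and Scanpy, and no aligner is named in the sources used here. The 8 HiSeq tables were used as counts, and the MiSeq tables as an alternative.

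Barcodes with 450 to 4000 genes and under 20% mitochondrial UMIs were kept. Counts were scaled to 10000, log-transformed and clustered with scanpy 1.11.5 (30 components, 20 neighbours, Leiden resolution 0.3), leaving out the 10 genes and the 87 listed junction genes. Clusters were named from at least 3 raised markers. Doublets were limited only by the cap of 4000 genes, with Scrublet as an alternative. UMIs were summed per class and model. Levels have exact Poisson, shares Clopper-Pearson and ratios conditional binomial 95% intervals. These cover counting error only, since amplified reads were counted by UMI but each model was processed as 1 sample, and no test was made. A gene entered a count of ratios with at least 50 UMIs in the 2 pools, and the call was a 2-fold ratio. A gene stayed above background where its interval lay above that of the lower of the macrophage-like and fibroblast-like levels. The higher of the 2, and these calls without each fraction, were added after seeing the data. Likeness used log2(CPM + 10) in pools of at least 20 cells, over genes with at least 200 UMIs. All 10 genes are named whatever their values, and of each junction list the 2 highest and 2 lowest ratios between models were candidates for naming. The ratios were tested on simulated data. The genes, lists and alternatives were chosen with earlier results of these data known.

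Alternatives changed the clustering, barcode filters, scaling, thinning, fractions and sequencing run.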

Additional observations from a re-analysis of the deposited data

Results flagged for a closer look

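Of 30 groups of 4 fractions examined (10 genes in 3 tumour classes), 3 held a fraction that stood apart from the others by its gap relative to the range. Chance gives about 1 in 20 such groups where all fractions have the same spread, which was not checked. Fraction 1 of WB1P was much shallower than the others, with 256985 UMIs in its table. In epithelial-like cells of WB1P-Myc, fraction 3 had Cldn3 at 183 CPM and Cldn4 at 43.9, against at most 109 and 13.6 in the other fractions. In epithelial-like cells of WB1P, fraction 1 had Tjp1 at 0, from 60 cells. The fractions are technical repeats of 1 processed sample, and no reason for these values was tested.

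Barcodes above the limit of 4000 genes were outside every comparison and also held the genes. In 40 such barcodes of WB1P, Epcam was at 3151 CPM, and in 134 of WB1P-Myc at 728. Whether these barcodes are single cells was not tested.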

How the results depend on the processing

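The median log2 ratio of WB1P-Myc over WB1P epithelial-like cells lay between −1.51 and −1.27 without each fraction in turn, and that of all tumour-type cells between −2.28 and −2.04. For Schwann-like over epithelial-like cells the range was −3.64 to −3.19. No alternative turned the direction of any of these medians. Classes from the largest marker sum moved the first from −1.36 to −0.77, with 3 genes at least 2-fold lower in place of 6, and the Schwann-like median from −3.41 to −2.80. The Schwann-like median was −1.73 when clustering used the 2000 most variable genes, −2.80 under 10% mitochondrial UMIs and −3.91 with the macrophage-like level subtracted, which left 5 genes, 4 of them 2-fold lower. For WB1P-Myc tumour-type cells without over with an Epcam UMI, −2.46 became −2.03 under 10% mitochondrial UMIs, −2.10 without the 37 cells marked by Scrublet, −1.77 at 1000 UMIs, and −2.56 to −2.38 without each fraction in turn. In alternatives chosen after seeing the data it was −2.44 with the thinning drawn anew, −1.31 in epithelial-like cells alone, −1.86 in those of the finer clustering and −1.98 in those of the MiSeq tables, where 3 of 6 genes were 2-fold lower. At 600 UMIs per cell the mean number of genes seen was 1.33, 0.52 and 0.064 in WB1P epithelial-like, WB1P-Myc epithelial-like and Schwann-like cells, in place of 1.70, 0.83 and 0.10. It was 0.38 in Schwann-like cells of the MiSeq tables at the main resolution, where that cluster took in nearly all WB1P-Myc tumour cells and left 2 epithelial-like ones, so ratios were taken at the finer setting, a choice also made after seeing the data. Of the single-gene values under all alternatives, 740 moved by less than the SD over fractions, 152 by more, and 40, all of Spint1 by Epcam, had no SD. Alternatives that changed the cells of the division by Epcam, other than leaving out a fraction, also drew the thinning anew. Between the models, Cdh1 ranged from −0.17 to 1.45, Dsp from −0.45 to 0.50 and Tjp1 from −0.73 to 0.87, so their directions are not settled. The causes of the other shifts were not tested. No paired analysis was possible because each model was processed as 1 sample and the fraction numbers of the models share nothing but a number. Spint1, Cldn4 in WB1P-Myc and Tjp1 in WB1P rest on few UMIs, and 1 processed sample per model limits every comparison.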
